A study of Homo sapiens with 6 samples.

Results

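The 10 genes VEGFA, CA9, CA12, ADM, VLDLR, BNIP3, BNIP3L, ANKRD37, STC2 and LOX are target genes of the hypoxia-inducible factors (HIF) that lie outside glycolysis, and their probes were taken by gene symbol. Among the 36337 named genes on the array these 10 are held by 14 of 50599 probes. Of these, 12 probes of 9 genes passed the detection filter, and 11 probes of 8 genes were well above background in all 6 tumors. The single probe of BNIP3 and 1 of the 2 probes of VLDLR did not pass the filter, and the probe of STC2 passed it without being well above background on any array. In the DFX-treated tumors VLDLR was 2.20-fold and LOX 1.45-fold the control level at an unadjusted p under 0.05, whereas VEGFA, ADM, CA9, CA12, BNIP3L and ANKRD37 did not pass that threshold. None of the 9 tested genes passed after adjustment over the 31767 tested probes of the array.

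BxPC-3 cells, an established line from a human pancreatic adenocarcinoma, had been grown as xenografts under the skin of female BALB/c nude mice that were 8 to 10 weeks of age when the experiments began. Treatment started at a tumor volume of 150 mm3, and both groups were followed over 21 days. The 3 DFX mice received deferasirox, an oral iron chelator, in saline at 200 mg/kg by gavage, 3 times per week, and the 3 control mice received the vehicle alone. One cell line was used, nude mice lack mature T cells but keep their own stroma, vessels and blood, and the RNA came from whole tumors. A lower signal in such bulk RNA may come from fewer cells of a type or from less RNA per cell, and these cannot be told apart. All p-values rest on these 6 tumors, and those of limma set the group difference against the spread within the groups.

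HIF is a dimer of an oxygen-labile alpha subunit, HIF1A or EPAS1, and the stable partner ARNT. Prolyl hydroxylases of the EGLN family, which need iron and oxygen, mark the alpha subunit for VHL and the proteasome, and low oxygen or iron chelation lets the subunit accumulate in cultured cells. The dimer binds short hypoxia response elements and raises genes for blood vessel growth, acid balance, lipid uptake, mitophagy and matrix stiffening, as well as for glycolysis.

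The core of the hypoxia response element reads ACGTG or GCGTG. Promoters are shown for VLDLR and LOX, the genes that passed the unadjusted threshold, and for CA9, a classical HIF target whose core lies next to the gene start. They are the 250 bases before the gene start, from RefSeq on GRCh38.p14, written 5′ to 3′ on the strand of the gene, with every core on either strand in capitals (CACGT and CACGC are the cores read from the other strand).
VLDLR, chr9:2621537-2621786, plus strand: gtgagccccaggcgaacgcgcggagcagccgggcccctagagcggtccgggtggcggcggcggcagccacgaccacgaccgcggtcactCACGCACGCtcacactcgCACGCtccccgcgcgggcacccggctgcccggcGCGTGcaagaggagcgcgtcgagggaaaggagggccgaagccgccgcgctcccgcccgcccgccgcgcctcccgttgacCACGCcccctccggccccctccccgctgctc
LOX, chr5:122078260-122078509, minus strand: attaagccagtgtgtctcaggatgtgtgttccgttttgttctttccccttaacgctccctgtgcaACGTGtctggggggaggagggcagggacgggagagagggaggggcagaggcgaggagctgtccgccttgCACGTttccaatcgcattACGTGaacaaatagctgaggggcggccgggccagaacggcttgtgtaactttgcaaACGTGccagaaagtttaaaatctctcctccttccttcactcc
CA9, chr9:35673678-35673927, plus strand: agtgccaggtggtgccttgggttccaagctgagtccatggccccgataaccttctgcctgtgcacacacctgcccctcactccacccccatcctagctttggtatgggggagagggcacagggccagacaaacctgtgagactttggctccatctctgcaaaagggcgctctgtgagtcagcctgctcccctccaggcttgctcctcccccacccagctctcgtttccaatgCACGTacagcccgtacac

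Of the 10 genes, 8 had a promoter in the RefSeq table, and each of the 8 held a core in these 250 bases. A core of either form was found in 43.2% of 35116 promoters of the same length, ACGTG in 18.5% and GCGTG in 32.2%. The ACGTG form was present in 4 of the 8 genes, and the GCGTG form in 5. LOX had 4 cores, all of the ACGTG form, and the nearest began 42 bases before the start. In VLDLR all 5 cores were of the GCGTG form, and the first 2 overlap by 1 base. The single core of CA9 began 18 bases before the start. ANKRD37 and BNIP3 each hold the palindrome CACGTG, which counts as an ACGTG core on each strand, among 3 and 6 matches. A match describes these letters, not a site bound in the tumors.

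**Figure D1:**
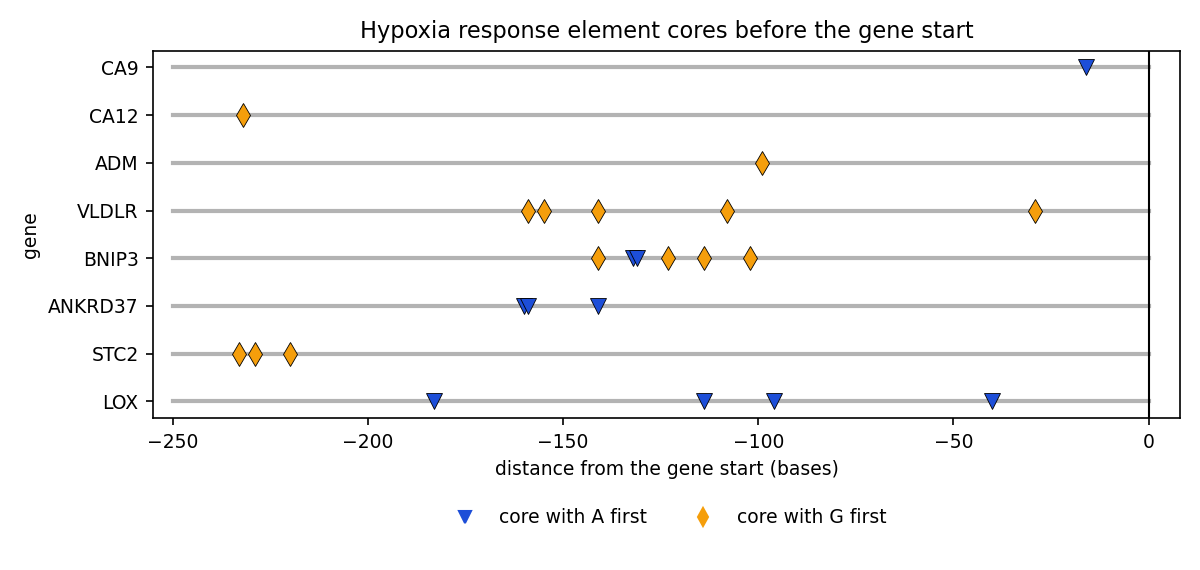
Positions of hypoxia response element cores in the 250 bases before the start of 8 genes. The horizontal axis is the distance from the gene start in bases, each line is 1 gene, triangles are cores that begin with A and diamonds cores that begin with G on either strand. LOX has 4 cores of the first kind and VLDLR 5 of the second, and the core of CA9 lies nearest to a gene start.

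RNA was hybridized to one-color 60-mer arrays, 1 tumor per array, and values are quantile-normalized log2 intensities, so that a difference of 1 is a 2-fold change. Well above background were 50.3% to 56.5% of the probes on each array, with the lowest share in DFX replicate 2, and the number of arrays limits the precision. All arrays lay on 1 slide, where row 1 held the control tumors and row 2 the others, so row and treatment cannot be told apart. The epithelial markers KRT7, KRT8, KRT18, KRT19, KRT17, EPCAM, CDH1, MUC1, ITGB4 and CLDN4 were well above background in all 6 tumors. They show epithelial RNA and do not identify the line. Of these 10 markers, EPCAM, KRT8 and KRT18 were higher in the DFX-treated tumors at an unadjusted limma p under 0.05, with log2 fold changes of 0.43, 0.48 and 0.27. Over the whole array 3.63% of tested genes were called higher and 4.29% lower, and the markers were not tested as a set. The KRT8 call was lost without control replicate 2 or 3 or DFX replicate 1 or 2, and the KRT18 call without control replicate 1 or 3 or DFX replicate 1 or 2. With the slide column as a block none of the 3 markers was called, with unadjusted limma p of 0.132 for EPCAM, 0.135 for KRT8 and 0.273 for KRT18. That fit rests on slide columns 2 and 4, which hold both groups. It called 4.47% of all tested probes, against 8.41% without the block. A call lost there, for these or other genes, does not by itself show a smaller difference.

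VLDLR, the very low density lipoprotein receptor, takes up triglyceride-rich lipoproteins and also binds reelin. Its measured probe lies at chr9:2653897-2653956 (hg19). The normalized log2 intensity was 7.10, 7.08 and 6.26 in control replicates 1, 2 and 3, and 7.62, 7.96 and 8.27 in DFX replicates 1, 2 and 3. All 3 DFX-treated tumors lay above all 3 control tumors, and control replicate 3 was the lowest. The mean was 6.82 ± 0.48 (SD, n = 3) in the control group and 7.95 ± 0.33 (SD, n = 3) under DFX. The log2 fold change was 1.14 (standard error 0.29, 95% interval 0.44 to 1.83), and limma gave an unadjusted p of 0.00728 and a Benjamini-Hochberg adjusted p of 0.515. A larger log2 fold change was found for 82 of 24360 probes that were well above background on every array (0.337%). The unadjusted p stayed under 0.05 under all 18 alternatives, with log2 fold changes of 0.74 to 1.43, the lowest without background correction. The other probe of VLDLR, at chr9:2643220-2643279, was at 2.10 to 2.11 in the control and 2.17 to 2.62 in the DFX-treated tumors. It was well above background on none of the 6 arrays, so it gives no fold.

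Of 8 other genes of lipoprotein uptake and its control, 7 were tested, and limma called 0 of them at an unadjusted p under 0.05. The Kruskal-Wallis H test called 1, against 15.5% of all tested probes of the array. The median of the 7 genes was 0.082 on the log2 scale.

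LOX, lysyl oxidase, is a secreted copper enzyme that cross-links collagen and elastin. Its probe, spotted 10 times on each array, lies at chr5:121405786-121405845 (hg19) within the gene. The 60-mer is shown because the value of LOX rests on this sequence alone:
LOX probe: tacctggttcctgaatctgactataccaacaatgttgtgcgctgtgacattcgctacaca

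The log2 intensity of LOX was 6.26, 6.78 and 6.64 in control replicates 1, 2 and 3, and 6.76, 7.30 and 7.24 in DFX replicates 1, 2 and 3. DFX replicate 1 lay just under control replicate 2, so the groups overlapped, and the other DFX-treated tumors lay above all controls. The means were 6.56 ± 0.27 (SD, n = 3) and 7.10 ± 0.29 (SD, n = 3), a log2 fold change of 0.54 (standard error 0.21, 95% interval 0.029 to 1.04). The unadjusted p was 0.0414 and the adjusted p 0.580 from limma. This call was lost under 8 of 18 alternatives, among them each of 4 tumors left out. Without control replicate 1 or 3 the log2 fold change was 0.39 and 0.58, and without DFX replicate 2 or 3 it was 0.44 and 0.47. Without background correction it was 0.31, and the call was kept.

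Fibroblasts are a main source of lysyl oxidase, and their marker genes are given beside LOX for that reason. Of the 10 fibroblast markers, 9 were tested. DCN (decorin) and PDGFRA were lower in the DFX-treated tumors, with log2 fold changes of -1.30 and -1.12, and LUM (lumican) was higher at 0.87, each at an unadjusted limma p under 0.05. Over the whole array 3.63% of tested genes were called higher and 4.29% lower, and the markers were not tested as a set. The LUM call was lost without control replicate 2 or 3 or DFX replicate 2 or 3. With the slide column as a block the calls of LUM (1.21, unadjusted limma p 0.0528) and PDGFRA (-0.83, unadjusted limma p 0.0847) were lost, and that of DCN was kept. PDGFRB did not pass the filter. The log2 of the summed linear intensities of the 9 genes, which the brightest genes dominate, was 13.81 to 14.54 in the control tumors. In the DFX-treated tumors it was 13.69 to 14.00. The stroma belongs to the mouse host and the probes are human. The cells behind these signals, and their part in the LOX values, were not tested. Of the other lysyl oxidases, LOXL1 to LOXL4, limma and the Kruskal-Wallis H test each called 0 of 4 at an unadjusted p under 0.05, and LOXL2 had a log2 fold change of 0.021 (95% interval -0.75 to 0.79).

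CA9 and CA12 are carbonic anhydrases of the cell surface, which turn carbon dioxide into bicarbonate and protons outside the cell and help tumor cells to keep their inner pH. The probe of CA9 covers an exon junction, since its 60 bases span chr9:35677817-35679204 (hg19), 1388 bases of the genome:
CA9 probe: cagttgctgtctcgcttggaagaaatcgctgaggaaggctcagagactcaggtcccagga

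CA9 was at 9.19, 9.77 and 8.74 in control replicates 1, 2 and 3, and at 9.67, 9.75 and 9.64 in the DFX-treated tumors. The DFX-treated tumors differed little, with an SD of 0.056 against 0.52 in the control tumors, and control replicate 2 was the highest of all 6. The log2 fold change was 0.46 (standard error 0.26, 95% interval -0.18 to 1.09), and limma gave an unadjusted p of 0.131 and an adjusted p of 0.671. Without control replicate 2 the log2 fold change was 0.72 with an unadjusted limma p of 0.00932, and without control replicate 3 it was 0.21. CA12, at chr15:63616499-63616558, was at 10.04, 10.18 and 9.76 in the control and 10.13, 9.69 and 10.26 in the DFX-treated tumors. Its groups overlapped, DFX replicate 2 was the lowest tumor and DFX replicate 3 the highest, and the log2 fold change was 0.033 (95% interval -0.44 to 0.51).

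Of 13 other carbonic anhydrases, 9 were tested, and CA1 and CA13 were higher at an unadjusted limma p under 0.05. Over the whole array 3.63% of tested genes were called higher and 4.29% lower, and this list was not tested as a set. CA13, a cytosolic form, was at 7.36, 7.56 and 6.22 in the control and 8.04, 8.04 and 7.96 in the DFX-treated tumors, without overlap, and its call was lost when any 1 DFX-treated tumor was left out. CA1, the abundant form of red blood cells and colon, was at 2.74, 5.14 and 1.98 in the control and 6.10, 7.09 and 4.89 in the DFX-treated tumors. The groups overlapped for CA1, and it was well above background on 1 of 3 control arrays and on all 3 DFX arrays. Its call was lost without control replicate 1 or 3 or DFX replicate 1 or 2. CA2, the widespread cytosolic form, had a log2 fold change of 0.17 (95% interval -0.32 to 0.66). The red blood cell genes HBA2 and HBD were lower in the DFX-treated tumors, with log2 fold changes of -1.93 and -1.12. The blood belongs to the mouse host and the probes are human. The cells behind these signals, and their part in the CA1 values, were not tested.

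VEGFA is the main growth factor for endothelial cells. It had 2 probes, of which the brighter covers an exon junction over chr6:43746223-43746634 and the other lies at chr6:43753511-43753570 (hg19), farther along the gene. The junction probe reads:
VEGFA probe: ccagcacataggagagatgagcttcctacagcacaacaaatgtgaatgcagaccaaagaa

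With the junction probe, VEGFA was at 12.10, 12.61 and 12.25 in the control and 12.54, 12.31 and 12.82 in DFX replicates 1, 2 and 3. With the other probe it was at 11.34, 11.63 and 11.63 in the control and 11.37, 11.32 and 11.87 in the DFX-treated tumors. On both probes DFX replicate 3 was the highest tumor and the groups overlapped. DFX replicate 2 was the lowest tumor on the probe farther along the gene. The log2 fold changes were 0.24 (95% interval -0.23 to 0.71) and -0.015 (95% interval -0.47 to 0.44), with adjusted p of 0.749 and 0.989 from limma. The distance between the probes, which leaves out the level of each array, was 0.79 ± 0.18 (SD, n = 3) in the control and 1.04 ± 0.12 (SD, n = 3) under DFX, and these ranges overlapped.

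Among 8 other VEGF ligands and receptors, all tested, PGF was higher and NRP2 lower in the DFX-treated tumors at an unadjusted limma p under 0.05. Over the whole array 3.63% of tested genes were called higher and 4.29% lower, and this list was not tested as a set. PGF, placental growth factor, a VEGF relative that binds FLT1, was at 11.71, 12.02 and 11.46 in the control and 12.15, 12.38 and 12.66 in the DFX-treated tumors, without overlap, with a log2 fold change of 0.67. NRP2, a co-receptor for VEGF and semaphorins, was at 7.27, 7.45 and 7.52 in the control and 6.74, 6.72 and 7.16 in the DFX-treated tumors, a log2 fold change of -0.54 that lost its call without DFX replicate 1 (-0.47) and with the slide column as a block (-0.45, unadjusted limma p 0.124). The PGF call was lost with array weights (0.43, unadjusted limma p 0.0521). The receptors FLT1 and KDR were well above background on no array. Of the 10 endothelial markers, 6 were tested, and TEK, EMCN, CLDN5 and ROBO4 did not pass the filter. PECAM1 was higher (log2 fold change 1.27) and TIE1 lower (-0.78) at an unadjusted limma p under 0.05, the latter not without control replicate 2 or 3 or DFX replicate 1 or 2, nor with the slide column as a block (-0.47). The share over the array, 7.91% of tested genes called in either direction, stands beside this count too. The log2 of the summed linear intensities of the 6 genes, which the brightest genes dominate, was 9.46 to 10.09 in the control tumors. In the DFX-treated tumors it was 9.38 to 9.58. The vessels belong to the mouse host and the probes are human, and the part of endothelial signal in the VEGFA and PGF values was not tested.

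ADM encodes adrenomedullin, a secreted peptide that widens vessels and acts through the receptor CALCRL with a RAMP partner. Its probe, spotted 10 times, lies at chr11:10328780-10328839 (hg19). ADM was at 13.88, 14.53 and 13.99 in the control and 13.80, 14.18 and 14.98 in DFX replicates 1, 2 and 3. DFX replicate 1 was the lowest tumor and DFX replicate 3 the highest, and the log2 fold change was 0.19 (standard error 0.34, 95% interval -0.64 to 1.01). Without DFX replicate 3 it was -0.14, so its sign rested on that tumor. CALCRL was well above background on 1 DFX array, at 6.84 in DFX replicate 2 against 2.10 to 3.54 in the control tumors. RAMP2 and RAMP3 did not pass the filter, and limma and the Kruskal-Wallis H test each called 0 of the 4 tested genes of the receptor group at an unadjusted p under 0.05.

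STC2, stanniocalcin, is a secreted glycoprotein tied to calcium and stress responses. Its probe, at chr5:172741987-172742046 (hg19), was at 3.12, 2.73 and 2.40 in the control and 3.13, 3.85 and 2.69 in the DFX-treated tumors. It was well above background on none of the 6 arrays, so no fold is given. Its relative STC1 was measured on all arrays and had a log2 fold change of -0.11 (95% interval -0.75 to 0.54).

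BNIP3 and BNIP3L are proteins of the outer mitochondrial membrane that recruit the autophagy machinery and so serve mitophagy. The probe of BNIP3, at chr10:133781881-133781940 (hg19), was at 2.07 to 2.26 in the control and 2.07 to 2.11 in the DFX-treated tumors. Well above background on no array, it gives no level for this gene. BNIP3L was bright on its 3 probes. The brightest, at chr8:26254988-26255047, was at 14.83, 14.70 and 14.34 in the control and 14.79, 14.62 and 15.08 in the DFX-treated tumors, with a log2 fold change of 0.20 (95% interval -0.25 to 0.66). The probes at chr8:26270286-26270345 and chr8:26252758-26252817 had log2 fold changes of 0.026 and -0.028. On all 3 probes control replicate 3 was the lowest tumor and DFX replicate 3 the highest. The adjusted p was 0.773 to 0.974 from limma. Of 14 other genes of mitophagy, all tested, limma called 0 by their brightest probe at an unadjusted p under 0.05. By any tested probe it called 1, GABARAPL1, lower on its dimmer probe, against 10.6% of all tested genes. The Kruskal-Wallis H test called 2, against 15.5% of all tested probes of the array, a count near that share. These were BNIP1 and BNIP2, at -0.28 and -0.22, named after their values were seen. The median of the 14 genes was -0.15 on the log2 scale, with 12 genes below 0 and 2 above.

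ANKRD37 is a small ankyrin repeat protein and a sensitive reporter of hypoxia in many cell types. Its probe, at chr4:186321293-186321352 (hg19), was at 10.53, 10.77 and 10.40 in the control and 10.36, 10.68 and 11.00 in DFX replicates 1, 2 and 3. The lowest and the highest tumor were both DFX-treated, and the log2 fold change was 0.12 (standard error 0.20, 95% interval -0.36 to 0.59).

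**Figure D2:**
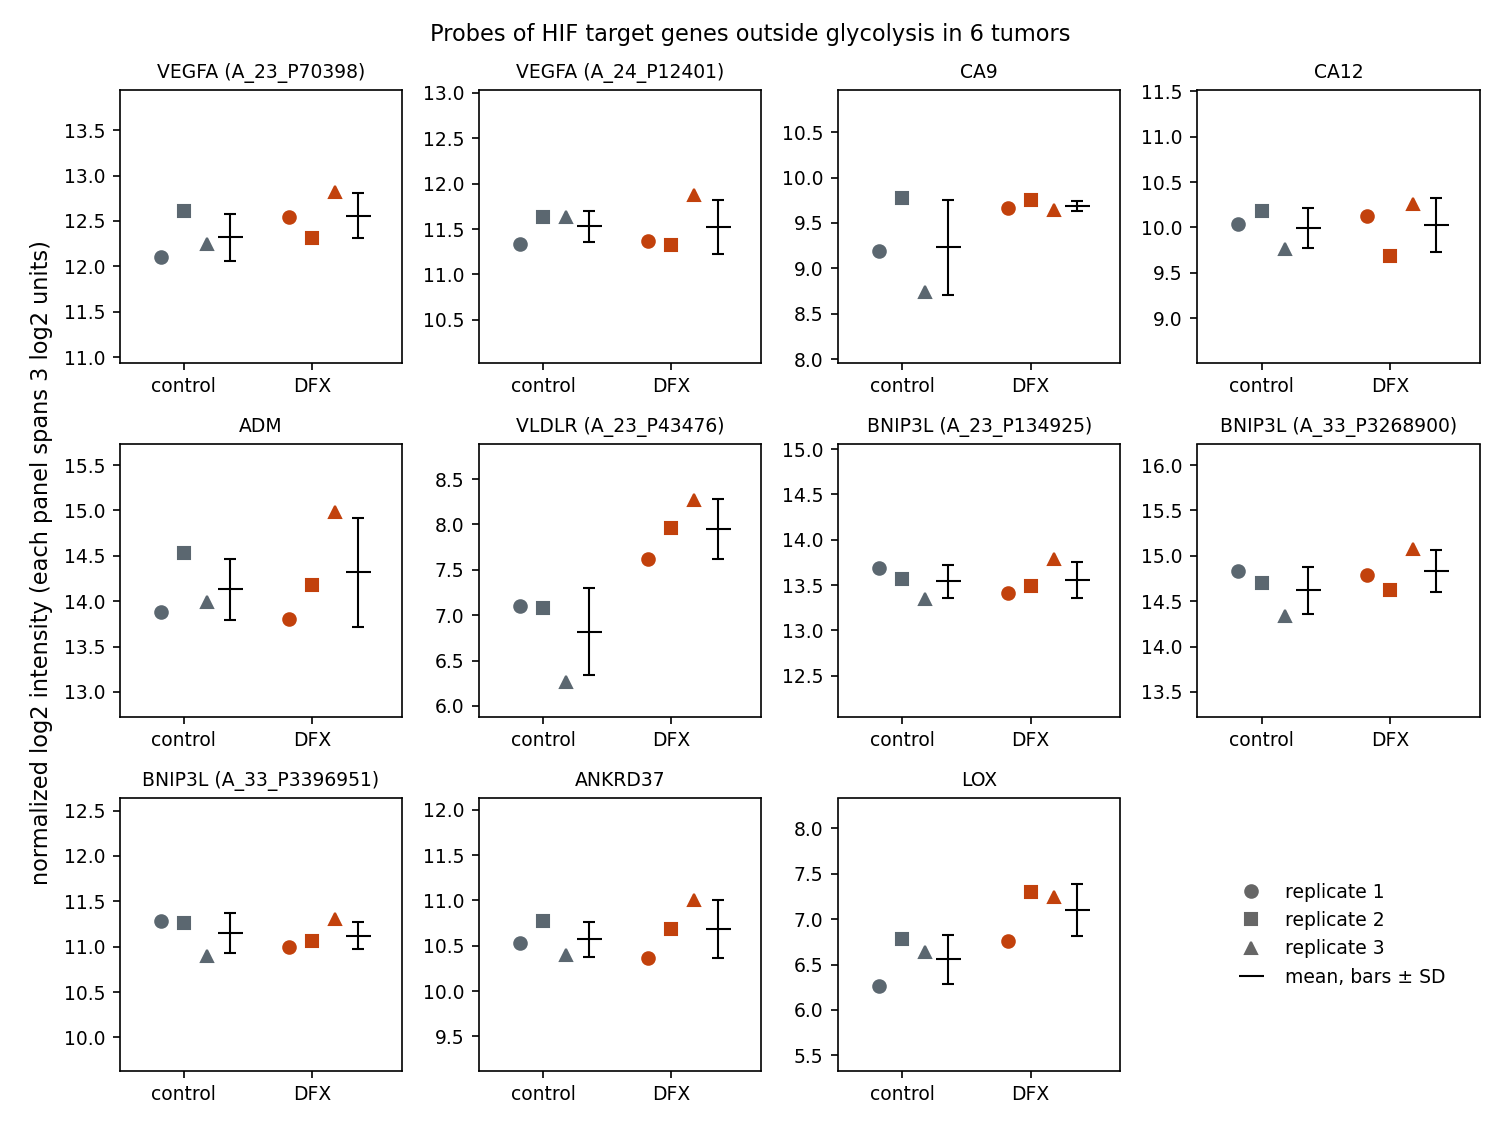
Normalized log2 intensity of the 11 probes well above background in all tumors, with 1 panel per probe, control tumors in gray and DFX-treated tumors in orange. Symbols give the replicate, and bars the mean ± SD of 3 tumors. VLDLR alone shows no overlap between the groups, at 6.26 to 7.10 against 7.62 to 8.27.

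**Figure D3:**
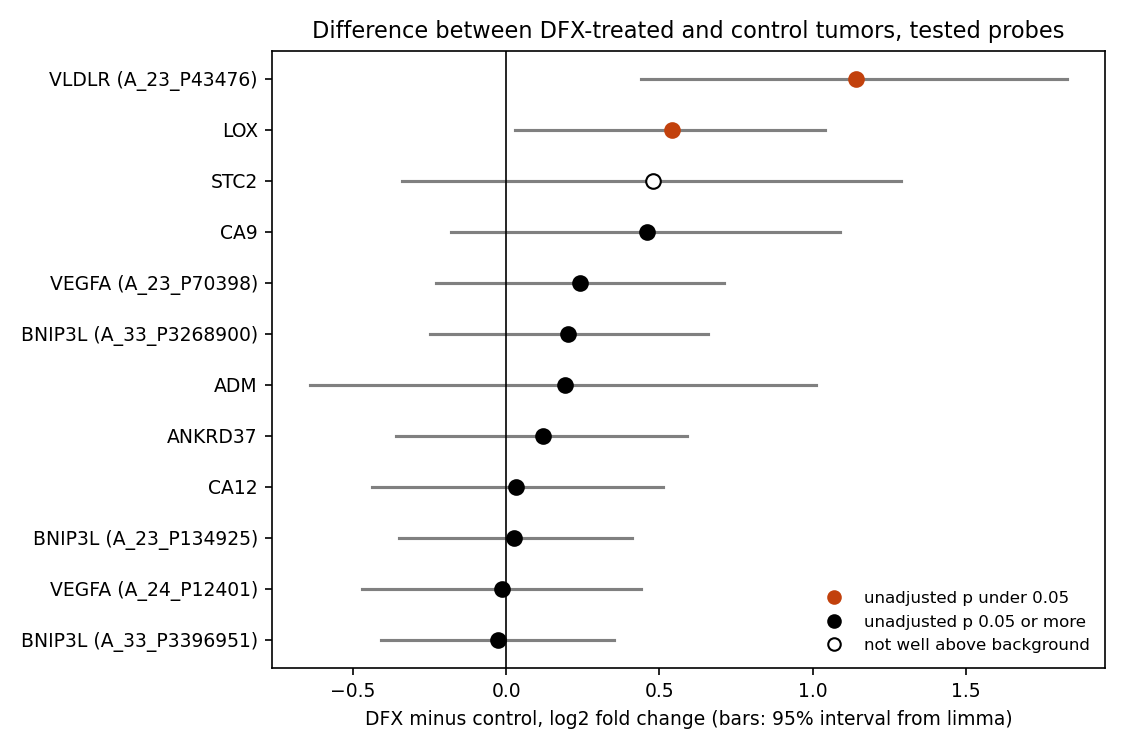
Log2 fold change of DFX-treated over control tumors for the 12 tested probes, with 95% intervals from limma. Orange marks an unadjusted p under 0.05 and the open symbol the probe of STC2, not well above background. The intervals of VLDLR (0.44 to 1.83) and LOX (0.029 to 1.04) lie above 0, and the other 10 include 0.

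Across the list, 2 of the 12 tested probes, and 2 of the 9 tested genes, passed an unadjusted limma p of 0.05, both higher under DFX. Over the whole array 8.41% of 31767 tested probes passed, 3.46% with higher and 4.95% with lower signal, and 7.91% of genes judged by their brightest tested probe, 3.63% higher and 4.29% lower. Of the called probes of the array 58.8% were lower in the DFX-treated tumors, against 42.8% when arrays were scaled to the 75th percentile and 71.9% when scaled to the median, which moved the median of all probes to -0.10. A count of 2 among 12 probes is too small to be set apart from these shares. Groups without overlap were found for 1 of the 12 probes (VLDLR), against 15.5% of all tested probes, 6.33% higher and 9.15% lower. At an adjusted p under 0.05, limma called 0 of the 12 probes, and its adjusted p ranged from 0.515 to 0.989. With 3 tumors against 3 the Kruskal-Wallis H test could call no probe of the array after adjustment, since its lowest unadjusted p is 0.0495, reached by every probe without overlap, and its lowest adjusted p was 0.32. By the brightest tested probe, the median over the 9 genes was 0.24 on the log2 scale, with all 9 above 0 (STC2, not well above background, included). Of all tested genes 47.6% were above 0, and the median of all was -0.0124. By probe, 10 of the 12 were above 0, and 2, of VEGFA and BNIP3L, below. CA12, ADM and ANKRD37 changed sign under some alternatives.

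The tumors of a group differed in these genes. Of the 11 well-measured probes, 9 were highest in DFX replicate 3, against 17.3% of the 24360 probes measured that well, and 5 were lowest in control replicate 3, against 21.6%. Control replicate 3 was also the highest tumor for 26.9% of the 24360 probes, and DFX replicate 3 the lowest for 21.7%. The array weights of limma, low where an array departs more from its group, were lowest for control replicate 3 (0.476) and DFX replicate 3 (0.594). Relative to the control mean, the median of the 9 genes was -0.033, 0.22 and -0.24 in control replicates 1, 2 and 3, and 0.20, 0.11 and 0.46 in DFX replicates 1, 2 and 3. DFX replicates 1 and 2 thus lay under control replicate 2, and only DFX replicate 3 above all controls. Without DFX replicate 3 the median over the list was 0.11, and without DFX replicate 1 it was 0.45.

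**Figure D4:**
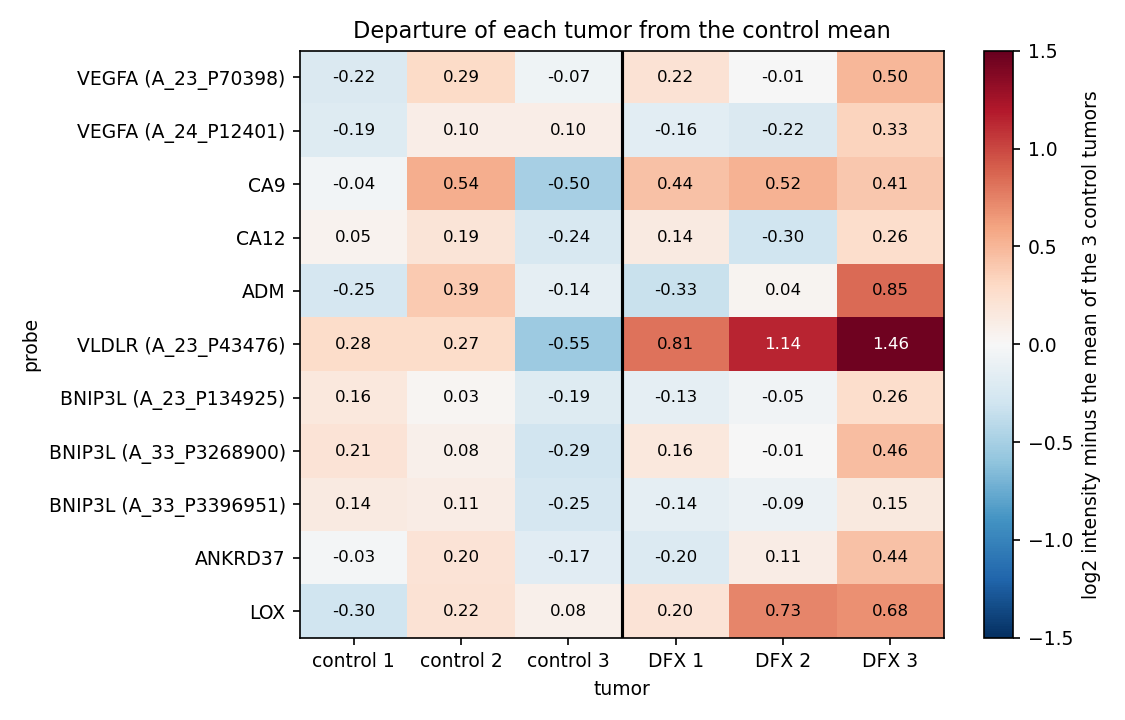
Log2 intensity of each tumor minus the mean of the 3 control tumors, for the 11 probes well above background. Rows are probes, columns are tumors, and color and printed value give the difference. DFX replicate 3 is the highest tumor for 9 of the 11 probes, and only VLDLR is above 0.8 in all 3 DFX-treated tumors.

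The other genes of the pathway were read from 3 lists. Of 53 further HIF targets outside the core of glycolysis, 52 were tested, and 4 were higher and 2 lower at an unadjusted limma p under 0.05. Of all tested genes of the array, 3.63% were called higher and 4.29% lower. The median of the 52 genes was 0.16 on the log2 scale, with 40 genes above 0 and 12 below. ANGPTL4, a secreted inhibitor of lipoprotein lipase, was at 12.88, 13.25 and 12.38 in the control and 13.32, 13.57 and 13.88 in the DFX-treated tumors, and the log2 fold change was 0.75 (standard error 0.26). TMEM45A (0.47), the heme oxygenase HMOX1 (0.36) and FAM162A (0.27) were the other higher genes. TFRC, the transferrin receptor, which is also raised by iron shortage through its messenger RNA, was at 11.94, 12.06 and 12.29 in the control and 11.59, 11.70 and 11.78 in the DFX-treated tumors, with a log2 fold change of -0.41. The transcription factor BHLHE41 was the other lower gene, at -0.45. These 6 genes separated the groups without overlap, and their adjusted p was 0.515 to 0.581 in limma. Among all 52 genes, 5 higher and 2 lower ones had no overlap, against 15.5% of all tested probes of the array, a count near that share. The count of 6 fell to 3 without control replicate 3, to 2 without DFX replicate 2 and to 3 without DFX replicate 3. BHLHE41 kept its call with each tumor left out in turn, and FAM162A lost its call each time. ANGPTL4 lost its call without control replicate 1 or 3 or DFX replicate 2 or 3. For TMEM45A this held without control replicate 1 or 3 or DFX replicate 1 or 3. HMOX1 lost its call without DFX replicate 1 or 2, and TFRC without control replicate 3 or DFX replicate 1 or 2. With the slide column as a block the call of BHLHE41 was lost, as were those of TFRC, HMOX1, FAM162A and TMEM45A, at unadjusted limma p of 0.140 to 0.255. The log2 fold changes were larger there for HMOX1 (0.42), FAM162A (0.30) and TMEM45A (0.54). For TFRC and BHLHE41 they were smaller, each at -0.37. That fit called 4.47% of all tested probes, against 8.41% without the block.

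Of 21 glycolytic HIF targets, 20 were tested, and PFKFB4, which sets the level of an activator of phosphofructokinase, was the 1 gene called, with a log2 fold change of 0.71 that lost its call without control replicate 1 or 3 or DFX replicate 2 or 3. Over the whole array 7.91% of tested genes were called. The median of the 20 genes was 0.033, with 11 above 0 and 9 below, and the lists were not tested against each other. Of 14 HIF subunits and regulators, limma called 0 by their brightest probe at an unadjusted p under 0.05. By any tested probe it called 1, ARNT2, lower on its dimmer probe, against 10.6% of all tested genes. The Kruskal-Wallis H test called 4, against 15.5% of all tested probes of the array, a count too small to be set apart from that share. HIF1A had a log2 fold change of -0.023 (95% interval -0.44 to 0.39), and EPAS1 one of 0.24 (95% interval -0.037 to 0.52). EPAS1 separated the groups, at 13.57 to 13.84 in the control and 13.90 to 13.97 in the DFX-treated tumors. The other 3 genes without overlap, named after their values were seen, were lower under DFX. They were ARNT, the stable HIF partner, at -0.23, CUL2, the cullin of the VHL ligase, at -0.29, and TCEB1, the elongin C of that ligase, at -0.11 on the log2 scale. VHL had 0.25 (95% interval -0.23 to 0.74). Of the hydroxylases that are themselves HIF targets, EGLN1 had 0.12 (95% interval -0.22 to 0.45) and EGLN3 had 0.46 (95% interval -0.34 to 1.25).

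**Figure D5:**
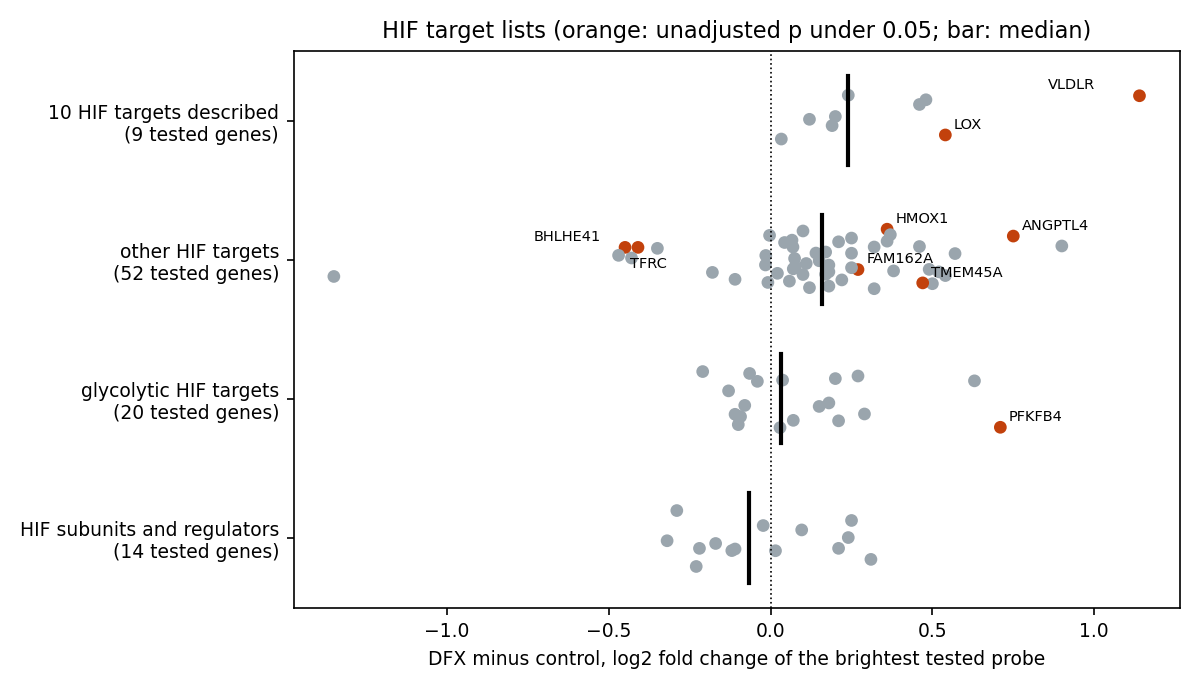
Log2 fold change of DFX-treated over control tumors for the brightest tested probe of each gene, in 4 lists of HIF pathway genes. Each point is a gene, orange points have an unadjusted limma p under 0.05, and bars are medians, at 0.24 for the 9 genes described, 0.16 for other targets, 0.033 for glycolytic targets and -0.065 for subunits and regulators.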

How the data were processed

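Gene expression was measured in 6 tumors, 3 control and 3 DFX, grouped by their labels. The authors deposited scanner files with linear intensity per spot, a p-value of each spot against its background, and 0 or 1 flags of other kinds. These were written by Agilent Feature Extraction (10.7.1.1 in the file headers, 9.5.1.1 in the submitters' processing notes) on the hg19 annotation. The authors also deposited a table of processed linear intensity, whose values lay, in the median, 0.185% away from processed signals put through the same quantile step. Following the methods of the study, log2 values of the processed signal of 58717 non-control spots were quantile-normalized, and a probe was tested where its p-value against background was below 0.05 in each of the 6 tumors (31767 of 50599 probes). Spots flagged as outliers (1398 values) were left out and spots of a probe averaged. The test was that of limma 3.58.1 (lmFit, eBayes; R 4.3.3), fitted over all tested probes, with Benjamini-Hochberg adjustment. The threshold was an unadjusted p of 0.05, as in the study, with the adjusted p beside it. The procedure was tested on simulated data.

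Each gene of a list stands for its tested probe with the highest mean. The genes named are all members, the genes of the other lists that passed the threshold (at most 6 per list), and a fixed set of regulators, receptors and relatives. One gene of that set is not reported here. Symbols are those of the array design. Members and lists were chosen with earlier results of these data known. The number of arrays limits the precision. The alternatives covered scaling, background correction, the filter, flagged spots, the authors' table, the Kruskal-Wallis H test of the methods, blocks, array weights and each tumor left out.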

Additional observations from a re-analysis of the deposited data

How the results depend on the processing

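VLDLR kept its direction and its unadjusted call under all 18 alternatives run. The 2 called probes and 2 called genes became 1 with median scaling, without the filter, with array weights and by the Kruskal-Wallis H test, since LOX was lost there, and were 1 to 3 with 1 tumor left out. CA9 passed in addition without control replicate 2 and with the slide column as a block (log2 fold change 0.73, unadjusted limma p 0.0408). The count of other HIF targets was 2 to 7 with 1 tumor left out. The median over the 9 genes was 0.51 on the log2 scale with the slide column as a block, a fit that rests on columns 2 and 4, which hold both groups, 0.12 with median scaling, 0.12 with array weights, and 0.11 to 0.45 when single tumors were left out. The cause of these moves was not tested.

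Probes near 0 changed sign. The VEGFA probe at -0.015 was at 0.00034 with normexp, 0.0024 without background correction, 0.11 with the slide column and -0.19 to 0.086 with 1 tumor left out. CA12 was at -0.078 with median scaling, -0.034 with array weights, and -0.086 to 0.20 when single tumors were left out. With array weights ADM was at -0.20 and ANKRD37 at -0.11, and when single tumors were left out ADM was at -0.14 to 0.45 and ANKRD37 at -0.045 to 0.28. The BNIP3L probe at 0.026 was at -0.074 with median scaling, -0.084 with array weights, and -0.088 to 0.11 when single tumors were left out. The BNIP3L probe at -0.028 was at 0.087 with the slide column and -0.15 to 0.040 with 1 tumor left out.

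Control and DFX tumors that share a replicate number departed from their group means with correlations of 0.0273, 0.0267 and 0.0159, and were not taken as pairs. With the replicate block, 2415 probes of the array were called against 2671, and the member count stayed at 2.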
